A study of Homo sapiens with 6 samples.

Results

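Splicing regulators were followed as a list of 47 genes among the 62252 genes to which transcripts were assigned. Membership went by gene symbol, with no threshold on a measured value. It held 12 SR proteins, 2 TRA2 proteins, 19 hnRNP proteins, 3 PTB proteins, 6 regulators best known from particular tissues (RBFOX2, MBNL1, MBNL2, MBNL3, CELF1 and QKI) and 5 proteins of splice site recognition (RBM39, U2AF1, U2AF2, TIA1 and TIAL1). For each gene the estimated read counts and the TPM (a transcript level scaled for length and library depth) of its GENCODE 44 transcripts were summed, and the TPM was then divided among transcript types.

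The RNA came from K562, a human erythroleukemia line, in which a single-cell clone carrying a blasticidin cassette between loxP and lox2272 sites at the AAVS1 locus, under an EF-1α promoter, had received a tet-inducible Flag-PCBP1 cassette by exchange. Cells grown without doxycycline (−Dox) gave 3 libraries, and cells given doxycycline to induce Flag-PCBP1 (+Dox) gave 3, and the labels give neither its dose nor its duration. Values are given below in the order of replicates 1, 2 and 3 of each group. All 6 libraries carry the same cassette, in a polyclonal line that was expanded under puromycin selection and whose parent was the engineered clone. An effect of PCBP1 and an effect of doxycycline itself therefore cannot be told apart. The labels do not say whether the replicates were separate cultures, so p-values measure only the spread between these libraries. RNA was selected by poly(A) tail, and total estimated counts were 84177316, 80104627 and 74766040 in −Dox and 70905656, 82263502 and 82449808 in +Dox.

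The induced gene was read first. PCBP1 stood at 156, 158 and 163 TPM in −Dox and at 596, 582 and 600.4 TPM in +Dox, a log2 fold change of 1.94 ± 0.06 (SE, adjusted p = 5.22e-10). Exons of PCBP1-AS1 on the opposite strand cover 73.2% of the exon bases of PCBP1, and the strand setting of the quantification is not given in the sources used here. All 9 erythroleukemia markers reported here were detected, among them KLF1 at 48.1, 50.8 and 53.3 TPM in −Dox and 70.9, 66.8 and 67.7 TPM in +Dox, and HBZ at 224, 242 and 222 TPM against 175, 177 and 165 TPM. Of those 9 markers, 3 were higher in +Dox and 1 lower at an adjusted p under 0.05, and their part in the results below was not tested. Of 13 markers of T cells, B cells, monocytes and epithelial or stromal cells, 9 did not pass the filter on low counts (CD8A and MS4A1 listed at 0 in every library, CD14 at most 0.117 TPM). The 4 that did were CD3D (33.6 to 57.4 TPM), EPCAM, COL1A1 and LYZ, of which LYZ alone was called, lower in +Dox at 94.1, 109 and 131 TPM against 73.1, 77.2 and 85.4 TPM.

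SR proteins bind exonic enhancers through their RNA recognition motifs and recruit the spliceosome through arginine-serine-rich domains, while hnRNP proteins and PTB more often repress the exons they coat. Many genes of both families carry an ultraconserved poison exon, whose inclusion places a stop codon ahead of an exon junction. The resulting mRNA is a substrate of nonsense-mediated decay (NMD), and the encoded protein usually promotes this outcome on its own transcript, which keeps its level in bounds. PTB proteins use the reverse arrangement, in which skipping of an exon shifts the reading frame. Such transcripts carry the type nonsense_mediated_decay in GENCODE, and transcripts that keep an intron carry the type retained_intron.

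The poison exon events of the regulators were read from the annotation. An event is an exon between 2 given neighbouring splice sites, where the coding-type transcripts that hold it in that place are all of the NMD type and at least 1 protein_coding transcript joins the neighbours directly. There were 53 such events in 27 of the genes, and 14 events of the reverse kind in 10 genes. As the definition goes by the neighbours, other coding transcripts can hold the same bases, so the events were sorted into 3 classes, a step taken after the values were seen. In 31 events of 18 genes no coding transcript holds the exon in its coding sequence or as an exon with the same ends, and the NMD form ends at a stop codon that no coding transcript uses, which lies inside the exon in 24. In 7 events of HNRNPA2B1, HNRNPA3, HNRNPD, HNRNPDL and SRSF2 the NMD form keeps a stop codon of coding transcripts and the exon follows it. In the other 15 (HNRNPA1, HNRNPH1, HNRNPU, HNRNPUL1, RBFOX2, TRA2A and U2AF1) coding transcripts hold the exon or part of its bases in another setting. In each of the 53 the stop codon of the NMD form lay more than 50 bases before the last exon junction. The following stretches (hg38, 5′ to 3′ on the transcribed strand) run from the first base of the exon to its in-frame stop codon, which is in capitals. They are exons of the first class and are shown because they carry the inclusion values given further on.
SRSF3, 456-base exon, shown chr6:36599821-36599854, plus strand: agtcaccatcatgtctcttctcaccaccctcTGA
SRSF6, 268-base exon, shown chr20:43459153-43459304, plus strand: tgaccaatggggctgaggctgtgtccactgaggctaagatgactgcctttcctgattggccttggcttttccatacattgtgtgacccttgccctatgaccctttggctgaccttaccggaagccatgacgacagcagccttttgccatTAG
SRSF7, 449-base exon, shown chr2:38749319-38749346, minus strand: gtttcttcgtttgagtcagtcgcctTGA
TRA2B, 276-base exon, shown chr3:185931772-185931852, minus strand: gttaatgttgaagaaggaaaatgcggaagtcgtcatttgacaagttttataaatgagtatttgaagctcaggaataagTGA
RBM39, 73-base exon, shown chr20:35740526-35740597, minus strand: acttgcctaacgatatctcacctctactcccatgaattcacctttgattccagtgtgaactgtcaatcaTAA
TIA1, 66-base exon, shown chr2:70225357-70225393, minus strand: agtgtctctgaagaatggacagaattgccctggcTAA
TIAL1, 376-base exon, shown chr10:119580810-119580846, minus strand: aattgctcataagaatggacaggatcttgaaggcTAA
The stop codons of the paralogs TIA1 and TIAL1 fall at the same place in their exons, and 25 of the 37 bases up to and including the stop are identical. The 34-base exons of PTBP1 and PTBP2, whose loss leads to the NMD form, are printed whole, with the bases that the paralogs share at the same position in capitals (25 of 34).
PTBP1, chr19:807869-807902, plus strand: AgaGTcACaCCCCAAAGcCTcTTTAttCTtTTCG
PTBP2, chr1:96806419-96806452, plus strand: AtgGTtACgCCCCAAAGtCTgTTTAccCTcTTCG

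PCBP1 binds cytosine-rich RNA, so the 100 intronic bases upstream of each exon were searched on the transcribed strand for CCCC, with overlapping matches counted as 1 hit per window. Of the 43 distinct exons of these poison events that passed the filter on low values, 13 held the motif (30.2%), against 6866 of 25060 skipped exons of all genes (27.4%). A match is a description of the sequence and not a binding site.

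Of the 21045 genes that passed the filter on low counts, 6908 had a mean of at least 10 TPM, as did 43 of the 47 regulators. Their levels spanned from SRSF12, listed at 0 in all 6 libraries, to HNRNPA1, at 2433, 2421 and 2399 TPM in −Dox and 2452, 2437 and 2377 TPM in +Dox, with a median of 126 TPM. HNRNPA1, a repressor of splice site choice that shuttles between nucleus and cytoplasm, did not pass the test (log2 fold change 0.01 ± 0.05, SE, adjusted p = 0.917). HNRNPC followed at a mean of 824 TPM over the 6 libraries, then HNRNPA2B1 at 660 TPM, SRSF3 at 597 TPM and HNRNPH1 at 396 TPM. Of the distinct 31-base words in the transcripts of HNRNPA1, 15.2% occur in transcripts of other genes, mainly its copies, and for HNRNPC 11.0% do. The closest copies, HNRNPA1L3 at 1.22 to 2.27 TPM and HNRNPCP2 at no more than 0.17 TPM, were assigned little. The TPM of the 47 genes summed to 10308, 10234 and 10374 in −Dox and to 9693, 9849 and 9509 in +Dox, a mean 6.03% lower with no overlap of the groups (p = 0.1 by a two-sided exact permutation test, which cannot give less with 3 libraries a group).

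At gene level, 46 of the 47 regulators passed the filter on low counts, and 10 were called at an adjusted p under 0.05 (edgeR quasi-likelihood test, Benjamini-Hochberg adjustment over 21045 genes). That is 21.7% of the regulators tested, beside 15.8% of all genes tested. HNRNPF, HNRNPDL, HNRNPA2B1, HNRNPAB, MBNL1, SRSF1, PTBP1, TRA2B and HNRNPU fell (9 genes) and TRA2A rose, beside backgrounds of 7.68% lower and 8.16% higher. Among all genes with a mean of at least 10 TPM, 27.4% were called in either direction and 15% lower, against 10 and 9 of the 43 regulators at that level. The changes were small. None of the 46 passed the further limit of an absolute log2 fold change above 1, which 1.46% of all genes met. The median log2 fold change was −0.06 over the 46 regulators and 0.01 over all genes tested. CPM did not overlap between the groups in 26 of the 46, 20 of them lower in +Dox, beside 33.2% of all genes in either direction. The share without overlap was not taken for genes at 10 TPM or more, among which calls were more frequent.

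**Figure D1:**
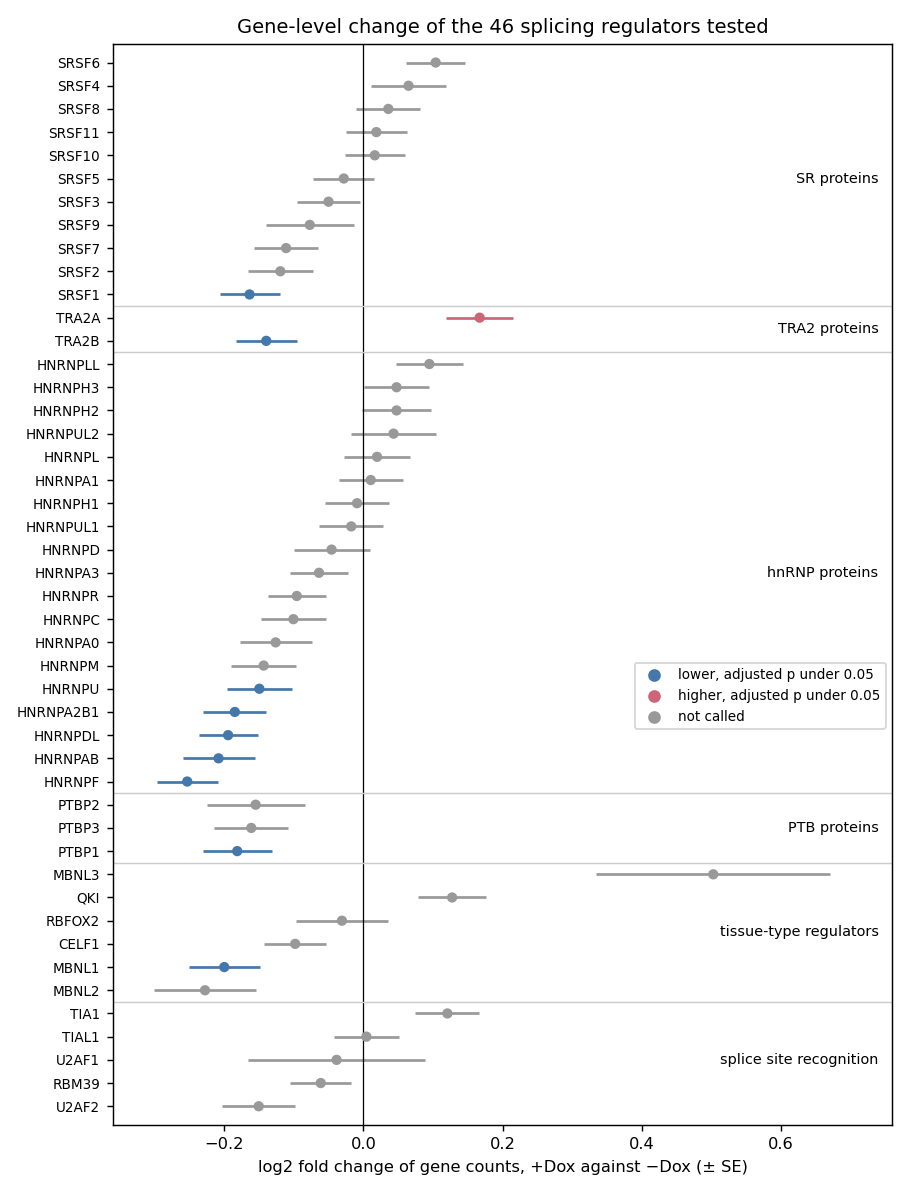
Log2 fold change of gene counts (horizontal axis, +Dox against −Dox) for the 46 splicing regulators tested, grouped by family, with points for the estimate and lines for ± 1 SE. The 9 genes called lower lie between −0.25 and −0.14, TRA2A at 0.17 is called higher, and MBNL3 has the widest error.

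Among the SR proteins 1 of 11 tested was called. SRSF1 (ENSG00000136450.13, chr17:58000919-58007346, minus strand), the founding SR protein and a regulator of constitutive and alternative splicing, stood at 239, 243 and 236 TPM in −Dox and at 196, 216 and 200.4 TPM in +Dox. Each +Dox library was below each −Dox library, and the log2 fold change was −0.16 ± 0.04 (SE, adjusted p = 0.0211). The call was lost when any of 4 of the 6 libraries was left out, with adjusted p of 0.0507 to 0.0841 (−Dox replicates 2 and 3, +Dox replicates 1 and 3). Of the other 10, SRSF2 (−0.12, adjusted p = 0.104) and SRSF7 (−0.11, adjusted p = 0.131) had non-overlapping CPM that was lower in +Dox, and SRSF6 (0.10, adjusted p = 0.119) had CPM that was higher. Log2 fold changes of the remaining 7 SR proteins lay between −0.08 and 0.06 and did not pass the test.

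The TRA2 paralogs, SR-related activators that bind GAA-rich enhancers, were called in opposite directions. TRA2A (ENSG00000164548.12, chr7:23504780-23532041, minus strand) stood at 73.3, 69.1 and 72.1 TPM in −Dox and at 76.1, 82.3 and 73.8 TPM in +Dox. All 3 +Dox values were above the −Dox values, the nearest by less than 1 TPM, with a log2 fold change of 0.17 ± 0.05 (SE, adjusted p = 0.032). TRA2B (ENSG00000136527.19, chr3:185914558-185938103, minus strand) stood at 287, 315 and 297 TPM in −Dox and at 254, 248 and 253 TPM in +Dox, without overlap (log2 fold change −0.14 ± 0.04, SE, adjusted p = 0.0477). Neither call held under every omission of 1 library. Leaving out 1 library ended that of TRA2A in 4 of 6 cases (−Dox replicates 1 and 2, +Dox replicates 1 and 2, adjusted p of 0.0848 to 0.107). It ended that of TRA2B in all cases but the omission of −Dox replicate 1 (adjusted p of 0.0714 to 0.166).

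The hnRNP proteins held 5 of the 9 lower calls among 19 tested. HNRNPF (ENSG00000169813.17, chr10:43385617-43409186, minus strand), which binds G-tracts, stood at 239, 235 and 236 TPM in −Dox and at 193, 199.5 and 199 TPM in +Dox. The groups lay well apart, and its log2 fold change of −0.25 ± 0.04 (SE, adjusted p = 0.00185) was the largest drop among the regulators. HNRNPDL (ENSG00000152795.18, chr4:82422565-82430462, minus strand), a paralog of the AU-rich element binding protein encoded by HNRNPD, fell from 288, 285 and 288 TPM to 234, 252 and 236 TPM (log2 fold change −0.19 ± 0.04, SE, adjusted p = 0.00755). HNRNPA2B1 (ENSG00000122566.22, chr7:26171151-26201529, minus strand), an hnRNP of splicing and RNA transport, fell from 746, 674 and 694 TPM to 610.0, 628 and 607 TPM (−0.18 ± 0.05, SE, adjusted p = 0.0142). These 3 genes were called with any 1 library left out.

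HNRNPAB (ENSG00000197451.12, chr5:178204533-178211163, plus strand) fell from 149, 157 and 157 TPM to 131, 136 and 126 TPM (−0.21 ± 0.05, SE, adjusted p = 0.0158). Its call was lost without −Dox replicates 2 or 3 or +Dox replicates 2 or 3 (adjusted p of 0.0523 to 0.076). HNRNPU (ENSG00000153187.21, chr1:244840638-244864560, minus strand), a scaffold protein of nuclear RNA and chromatin, fell from 213, 205 and 201 TPM to 183, 195 and 173 TPM (−0.15 ± 0.05, SE, adjusted p = 0.0483). The HNRNPU call was lost without any 1 library other than +Dox replicate 2 (adjusted p of 0.076 to 0.145). Of the 14 hnRNP genes not called, HNRNPM (−0.14, adjusted p = 0.0566) came nearest, and HNRNPM, HNRNPR and HNRNPA3 had CPM without overlap that was lower in +Dox, whereas HNRNPLL had CPM that was higher.

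The 3 PTB proteins, repressors that bind CU-rich tracts, lay close together, with log2 fold changes of −0.18, −0.15 and −0.16 for PTBP1, PTBP2 and PTBP3. Only PTBP1 (ENSG00000011304.22, chr19:797075-812327, plus strand) was called, at 96.0, 94.6 and 101 TPM in −Dox and 83.7, 87.0 and 85.7 TPM in +Dox (SE 0.05, adjusted p = 0.0263), and whether the 3 genes differ from each other was not tested. The PTBP1 call was lost without −Dox replicates 2 or 3 or +Dox replicates 1 or 2 (adjusted p of 0.0735 to 0.116). PTBP2, the neuronal paralog, was present at 12.0 TPM (adjusted p = 0.169) and PTBP3 at 54.1 TPM (adjusted p = 0.0573).

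Among the regulators known from particular tissues, MBNL1 (ENSG00000152601.18, chr3:152243828-152465780, plus strand), the muscleblind protein sequestered in myotonic dystrophy, fell from 101, 94.5 and 92.2 TPM to 72.9, 84.2 and 79.0 TPM (−0.20 ± 0.05, SE, adjusted p = 0.0177). Every +Dox library was below every −Dox library, and of the omissions of 1 library that of +Dox replicate 1 alone ended the call (adjusted p = 0.0783). MBNL2 had a similar estimate (−0.23 ± 0.07, SE, adjusted p = 0.0515). MBNL3, barely expressed, had the largest positive estimate of the 46 (0.50 ± 0.17, SE, adjusted p = 0.061), at 0.236 ± 0.034 TPM in −Dox and 0.475 ± 0.080 TPM in +Dox (SD, n = 3 each). QKI (0.13, adjusted p = 0.0981), CELF1 (−0.10, adjusted p = 0.167) and RBFOX2 (−0.03, adjusted p = 0.816) were not called.

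**Figure D2:**
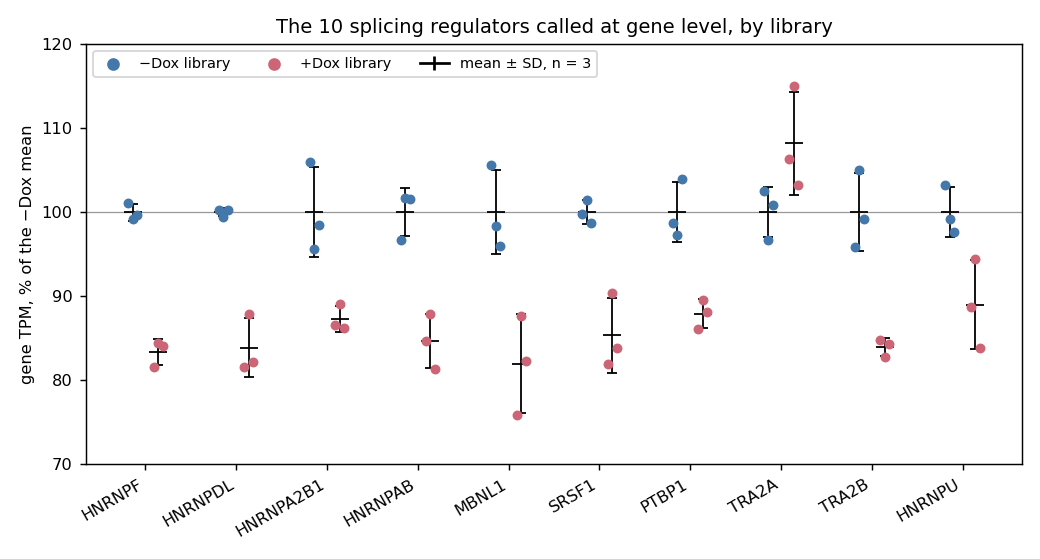
TPM of each called regulator in each of the 6 libraries, as a percent of the −Dox mean of that gene (vertical axis), with 3 points for −Dox and 3 for +Dox. In each of the 10 genes the groups do not overlap, and HNRNPF shows the widest gap.

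None of the 5 proteins of splice site recognition was called as deposited, and U2AF1 shares sequence with a copy. U2AF1, the subunit of U2 auxiliary factor that reads the AG of the 3′ splice site, stood at 194, 124 and 240.3 TPM in −Dox and at 161, 182 and 205 TPM in +Dox, the widest relative spread among the abundant regulators. The hg38 assembly holds a second stretch on chromosome 21 (chr21:6484623-6499248, ENSG00000275895.8), which GENCODE types as an artifact and 98.7% of whose 915 distinct 31-base words occur in U2AF1 transcripts. Its TPM ran opposite to that of U2AF1, at 92.4, 173 and 51.8 in −Dox and 96.1, 59.9 and 30.8 in +Dox. Whether reads of U2AF1 were assigned to the copy was not tested.

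Added together, U2AF1 and the copy stood at 286, 297 and 292 TPM in −Dox and at 257, 242 and 236 TPM in +Dox. The SD within −Dox dropped from 58.4 TPM for U2AF1 alone to 5.51 TPM for the sum, and the groups no longer overlapped. With the counts of the copy added to U2AF1, a step chosen after the values were seen, the log2 fold change moved from −0.04 ± 0.13 (SE, adjusted p = 0.888) to −0.23 ± 0.05 (SE, adjusted p = 0.0101), which makes 11 regulators called. That call held with any 1 library left out (adjusted p of 0.00757 to 0.0489). U2AF2, the partner subunit that binds the polypyrimidine tract, stood at 78.4, 78.3 and 77.9 TPM in −Dox and at 70.1, 69.1 and 67.3 TPM in +Dox, with an estimate of −0.15 ± 0.05 (SE) that did not pass (adjusted p = 0.0716). The estimates were −0.06 for RBM39 (adjusted p = 0.4), a cofactor of U2AF, 0.12 for TIA1 (adjusted p = 0.0979) and 0.00 for TIAL1 (adjusted p = 0.966).

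Some reads of other regulators could also belong to a neighbour or a copy. Of the 31-base words of SRSF1, 34.7% occur in other genes, and 31.3% in ENSG00000266086 alone, which was assigned 3.30 to 7.12 TPM. Exons on the opposite strand cover 7.61% of the exon bases of SRSF1, 9.57% of HNRNPA2B1 (NFE2L3), 9.25% of HNRNPAB (PHYKPL), 11.8% of MBNL1 (MBNL1-AS1) and 15.6% of HNRNPU (COX20). Among regulators not called, such exons cover 27.65% of SRSF2 (MFSD11), 43.6% of SRSF9 (GATC) and 53.7% of HNRNPA3 (NFE2L2). HNRNPH2 shares words with a readthrough gene, RPL36A-HNRNPH2, whose TPM ranged from 19.7 to 201 without regard to group. HNRNPF, HNRNPDL, TRA2A, TRA2B and PTBP1 shared less than 3% of their words with any other genes.

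The machinery around the regulators was read from lists of its own. Kinases that phosphorylate SR proteins and so set their activity and location were tested in 8 genes, of which 1 was called lower and none higher (12.5% called, beside 15.8% of all genes, median log2 fold change −0.01). SRPK1, the cytoplasmic SR kinase, was that gene, at 104, 99.7 and 98.2 TPM in −Dox and 83.2, 94.4 and 84.3 TPM in +Dox (−0.17, adjusted p = 0.0258), with 28.1% of its exon bases covered by LHFPL5 on the other strand. PRPF4B (−0.12, adjusted p = 0.127), CLK1 (0.10, adjusted p = 0.191), DYRK1A (−0.10, adjusted p = 0.236) and CLK2 (0.07, adjusted p = 0.396) were not called.

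Of 16 genes of NMD and the exon junction complex, the mark that a splice event leaves on mRNA, 1 rose and 2 fell (18.75% called, beside 15.8% of all genes and 27.4% of those at 10 TPM or more, median −0.06). EIF4A3, the anchoring helicase of the junction complex, fell from 156, 173 and 173 TPM to 141, 132 and 129 TPM (−0.27, adjusted p = 0.00496). MAGOH, another core subunit, fell from 182, 178 and 191 TPM to 161, 147 and 150.3 TPM (−0.24, adjusted p = 0.023). PYM1, which takes the complex off translated mRNA, rose from 34.1, 31.7 and 32.5 TPM to 38.8, 39.2 and 39.0 TPM (0.29, adjusted p = 0.00334). Of the junction complex core genes, MAGOHB did not pass (−0.15, adjusted p = 0.0909), nor did SMG8 of the SMG1 kinase complex (−0.16, adjusted p = 0.081).

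Of 22 proteins of the U1 and U2 snRNPs, which mark the splice sites and the branch point, 21 had a negative estimate and 2 were called lower (median −0.11). Negative estimates made up 95.5% of this list, 48.9% of all genes tested and 52.4% of those at 10 TPM or more, while the 9.09% called lower lay near the 7.68% of all genes and under the 15% at 10 TPM or more. SF3A3 fell from 121, 117 and 117 TPM to 96.5, 97.4 and 96.5 TPM (−0.23, adjusted p = 0.00221), and PHF5A, which lies at the branch point in the SF3B complex, from 73.7, 78.2 and 77.3 TPM to 63.8, 63.5 and 65.4 TPM (−0.21, adjusted p = 0.0369). SF3B5 (−0.21, adjusted p = 0.0575), SF3A2 (−0.19, adjusted p = 0.0656) and SNRPE (−0.19, adjusted p = 0.0676) did not pass. Of 20 genes of the tri-snRNP and the catalytic step, 18 had a negative estimate (90%) and 4 were called lower (20%, against the same backgrounds, median −0.08). These were PRPF3 (−0.25, adjusted p = 0.00564), EFTUD2 (−0.22, adjusted p = 0.00857), PRPF4 (−0.18, adjusted p = 0.0223) and PRPF31 (−0.17, adjusted p = 0.0331), all proteins of the U4/U6.U5 particle. PRPF3 stood at 34.3, 30.9 and 32.7 TPM in −Dox and 27.8, 27.9 and 25.8 TPM in +Dox, and EFTUD2 at 56.7, 49.7 and 55.3 TPM against 46.5, 50.4 and 48.7 TPM, where the groups overlapped. PRPF8, which holds the catalytic centre, was not called (−0.12, adjusted p = 0.129).

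At transcript level 569 of the 818 annotated transcripts of the regulators were tested and 1 was called, beside 0.204% of all 86178 transcripts tested. At an unadjusted p under 0.05 there were 78 (13.7%), against 10.0% of all transcripts. The called transcript was HNRNPC-210, a coding form of HNRNPC (ENSG00000092199.19, chr14:21209136-21269494, minus strand), the hnRNP that binds uridine tracts and coats nascent RNA. It stood at 286, 273 and 287 TPM in −Dox and at 198, 208 and 211 TPM in +Dox (log2 fold change −0.40 ± 0.04, SE, adjusted p = 0.0494), with a wide gap between the groups. The gene as a whole was not called, at 827 ± 17.2 TPM in −Dox and 820.5 ± 9.11 TPM in +Dox (SD, n = 3 each, −0.10, adjusted p = 0.176). The call was lost with any 1 library left out (adjusted p of 0.117 to 0.197), while the log2 fold change stayed between −0.44 and −0.37.

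Another pair of HNRNPC transcripts, picked after their values were seen, moved the other way without passing the test. HNRNPC-226 stood at 226.5, 231 and 232 TPM in −Dox and at 291, 271 and 276 TPM in +Dox (0.33 ± 0.06, SE, adjusted p = 0.15). HNRNPC-206, a short transcript of the retained_intron type, stood at 59.2, 71.7 and 72.4 TPM in −Dox and at 121, 103 and 106 TPM in +Dox (0.72 ± 0.15, SE, adjusted p = 0.18). Groups did not overlap in either.

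HNRNPC-210 and HNRNPC-226 differ in their coding sequence by a choice of 5′ splice site. The exon runs over 115 bases in HNRNPC-210 (chr14:21230958-21231072) and over 76 bases in HNRNPC-226 (chr14:21230997-21231072), and the 39 bases between these sites are the ones that set the C2 form of the protein apart from C1. They are shown in capitals after the last 10 bases common to both, because the called transcript HNRNPC-210 holds them and HNRNPC-226 does not.
HNRNPC, chr14:21230958-21231006, minus strand: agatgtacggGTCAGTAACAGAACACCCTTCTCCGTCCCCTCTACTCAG
The transcripts also differ in their first exon and in the length of the last exon, 757 bases against 341, so the estimates for each draw on more than this site. The last exon of HNRNPC-206 (chr14:21230898-21231072) holds the 39 bases and runs on past the second splice site.

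Over all coding transcripts of HNRNPC, the 8 with the longer exon took 41.2%, 40.0% and 40.3% of the TPM of the gene in −Dox and 30.2%, 31.01% and 31.1% in +Dox. The 13 with the shorter exon took 50.6%, 50.3% and 50.2% in −Dox and 54.0%, 55.5% and 55.4% in +Dox. The 6 transcripts of the retained_intron type took 7.84%, 9.26% and 9.14% in −Dox and 15.5%, 13.1% and 13.3% in +Dox. The groups stood apart in each of the 3 sets, by many times the spread within a group for the longer exon (p = 0.1 for each by the same exact permutation test). These sets too were formed after the transcript values were seen.

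**Figure D3:**
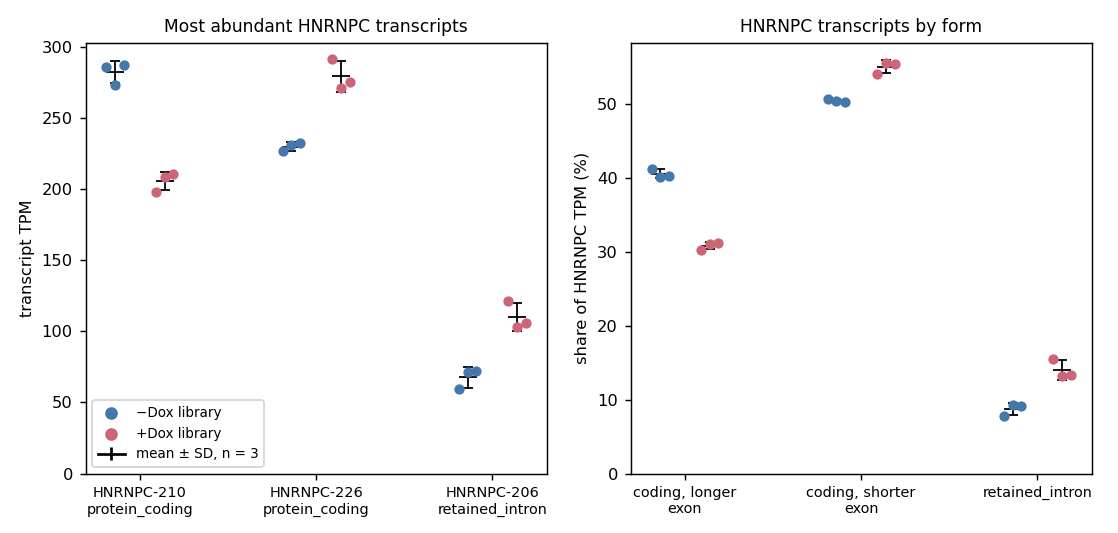
HNRNPC in each library: left, TPM of HNRNPC-210, HNRNPC-226 and HNRNPC-206, and right, percent of the TPM of the gene on coding transcripts with the longer exon, with the shorter exon and on retained_intron transcripts. Points are libraries, and the longer-exon share lies at 40.0% to 41.2% in −Dox and 30.2% to 31.1% in +Dox.

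Part of the RNA of these genes was assigned to transcripts that are not of the protein_coding type, as in other genes. Where such forms were tested, the median NMD share was 7.28% in the regulators and 6.28% over all genes, and the median retained_intron share 10.45% and 13.4%. Among the 46 expressed regulators the median share of TPM on protein_coding transcripts was 76.9%. The share was at least 90% in 14 genes and under 50% in 10, the lowest being TIAL1 at 25.3%. The single most abundant transcript was of the NMD type in HNRNPA1, HNRNPA2B1, HNRNPU, SRSF8 and QKI, and of the retained_intron type in TRA2B and TIAL1. HNRNPA1-205, of the NMD type, alone stood at 907 ± 24.1 TPM in −Dox and 878 ± 11.1 TPM in +Dox (SD, n = 3 each), 37.5% and 36.3% of the TPM of the gene. Such transcripts share bases with coding forms, so the split rests on the reads that tell them apart, which were not counted. An NMD label says nothing of whether decay occurred. Nor does it mean a shortened protein: HNRNPA1-205, HNRNPA2B1-203 and QKI-204, the most abundant transcripts of their genes, have the same coding sequence as a protein_coding transcript and carry the label because an exon junction follows the shared stop codon.

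**Figure D4:**
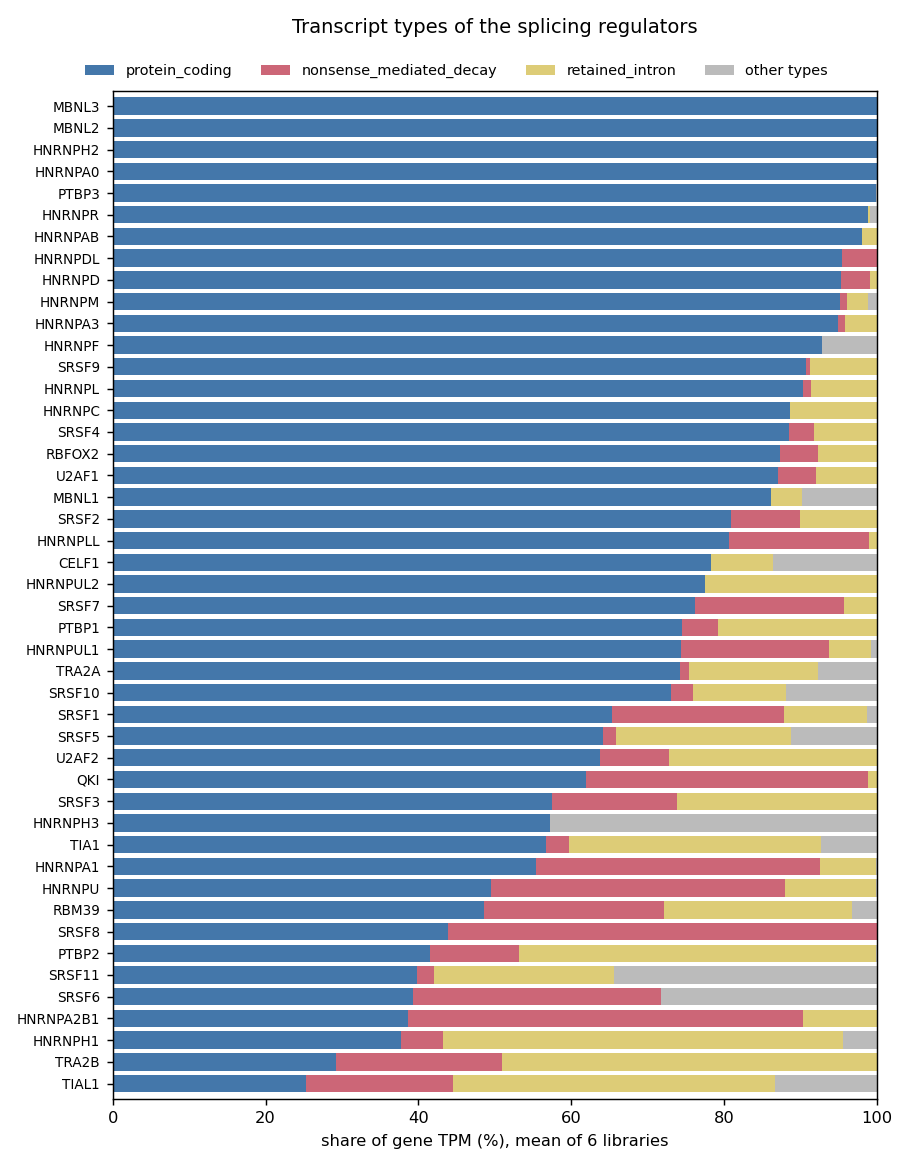
Share of the TPM of each of 46 regulators (percent, mean of 6 libraries) on protein_coding, nonsense_mediated_decay, retained_intron and other transcripts, as stacked bars from 0 to 100. The coding share runs from 25.3% in TIAL1 to above 90% in 14 genes.

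NMD-type transcripts were annotated in 37 of the regulators, and the ratio of NMD to coding TPM was tested in 34 (limma on log2 ratios, over 4123 genes). None was called, beside 0.0485% of all genes tested. At an unadjusted p under 0.05 there were 2 (5.88%), against 7.03% of all genes, and the smallest adjusted p was 0.645. The share of NMD-type TPM did not overlap between groups in 8 of the 34, 6 higher and 2 lower in +Dox, beside 13% of all genes in either direction. The median log2 ratio was 0.05 for the 34 and −0.04 for all genes tested. Across the 34 the NMD share ran from 0.0301% to 56.2% with a median of 7.28%.

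SRSF4 had the smallest p, with an NMD share of 2.73%, 2.39% and 2.0% in −Dox and of 3.70%, 3.82% and 4.68% in +Dox (log2 ratio 0.80 ± 0.23, SE, adjusted p = 0.645, limma). All +Dox values were above the −Dox values. TIA1, an activator that binds U-rich sequence downstream of 5′ splice sites, moved the other way, from 3.31%, 3.82% and 4.78% to 2.54%, 2.66% and 0.935% (−1.12 ± 0.45, SE, adjusted p = 0.705, limma), and without +Dox replicate 3 the log2 ratio was −0.64. RBM39 stood at 22.7%, 22.6% and 21.4% in −Dox and at 24.2%, 24.1% and 25.9% in +Dox, without overlap (0.30 ± 0.21, SE).

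Of the other genes with the lower p values, 3 had groups that did not overlap and 2 had groups that did. HNRNPL stood at 0.531%, 0.958% and 1.11% in −Dox and at 1.49%, 1.45% and 1.12% in +Dox, PTBP2 at 10.9%, 11.4% and 7.79% against 15.2%, 12.4% and 12.3%, each without overlap, HNRNPL by a narrow margin. SRSF9 stood at 0.437%, 0.166% and 0.497% against 0.381%, 0.745% and 0.725%, and PTBP1 at 5.12%, 2.77% and 4.93% against 4.85%, 5.23% and 4.92%, both with overlap. TRA2B stood at 20.95%, 20.2% and 21.4% in −Dox and at 21.6%, 23.9% and 22.4% in +Dox, the groups apart by a narrow margin. HNRNPUL1 (19.38% to 21.8% in −Dox, 17.2% to 19.36% in +Dox) was the other gene that was lower without overlap, also by a narrow margin. None of these passed the test.

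The 6 genes with an NMD share of at least 30% differed by less than 2 percentage points between the group means. SRSF8 stood at 56.0% ± 2.57 in −Dox and 56.4% ± 2.43 in +Dox, HNRNPA2B1 at 51.97% ± 1.08 and 51.5% ± 1.44, HNRNPU at 38.8% ± 1.08 and 37.9% ± 1.65, and HNRNPA1 at 37.9% ± 1.15 and 36.6% ± 0.897 (SD, n = 3 each). For QKI the values were 36.1% ± 0.732 and 37.6% ± 3.35, and for SRSF6 32.9% ± 2.57 and 32.1% ± 3.62. Transcripts that end at a stop codon of coding transcripts made up 100% of the NMD-type TPM in SRSF8, 99.85% in HNRNPA2B1, 99.05% in HNRNPA1 and 94.3% in QKI, against 2.38% in HNRNPU and 0% in SRSF6. Over the 35 regulators with any NMD-type TPM, they made up more than 50% in 8 and 0% in 24, and the share of the gene on NMD-type transcripts with a stop codon of their own had a median of 3.01%. SRSF1, called lower as a gene, stood at 22.2%, 21.1% and 21.9% in −Dox and at 22.5%, 23.7% and 23.98% in +Dox, higher without overlap (adjusted p = 0.936, limma).

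Retained_intron transcripts were annotated in 37 of the regulators and tested in 34. None was called, beside 0.0172% of the 5821 genes tested, and 1 (2.94%) had an unadjusted p under 0.05, against 8.13% of all genes. Groups did not overlap in 6 of the 34, 2 higher and 4 lower, beside 14.5% of all genes. That gene was HNRNPC, described above (log2 ratio of retained_intron to coding TPM 0.76 ± 0.18, SE, adjusted p = 0.501, limma). HNRNPH1, whose product binds G-tracts, stood at 55.1%, 54.8% and 53.6% in −Dox and at 49.4%, 49.6% and 51.0% in +Dox, and HNRNPD at 1.13%, 1.08% and 1.07% against 0.826%, 0.918% and 0.741%. Both were lower in +Dox without overlap, and neither passed the test. SRSF4 stood at 6.68%, 6.52% and 7.504% in −Dox and at 12.0%, 11.1% and 5.89% in +Dox, where +Dox replicate 3 went against the other two. RBM39 stood at 24.7%, 21.9% and 24.7% against 23.8%, 26.7% and 26.2%, and RBFOX2 at 10.9%, 7.81% and 7.75% against 7.83%, 3.57% and 8.55%, and the groups overlapped in both. In TRA2B the share was 48.9% ± 1.82 in −Dox and 49.1% ± 1.78 in +Dox (SD, n = 3 each), and across the 34 it ran from 0.96% to 52.2%.

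For the poison events themselves, inclusion is the percent of TPM on the including transcripts of an event among its including and skipping transcripts. Transcripts with other neighbours do not enter. Transcripts of every type enter on both sides, retained_intron among them, so inclusion is not the share of the NMD form beside coding forms alone. Of the 67 events, 58 passed the filter on low values (44 poison exon events in 25 genes, 31 of them of the first class, and 14 of the reverse kind in 10 genes), and none was called. None of the 26733 skipped exons of all genes was called either (0%), the smallest adjusted p being 0.168. The count at an unadjusted p under 0.05 was 2 of 58 events (3.45%), against 7.06% of all exons (1887), and groups did not overlap in 5 of 58 (8.62%), beside 10.4% of all exons. Inclusion was at least 10% in 10 of the 44 and under 5% in 28, and in 6 and 23 of the 31 of the first class. The estimated log2 ratio of including to skipping forms was above 0 in 30 of the 44 (68.2%) and below 0 in 14, beside 53.0% above 0 over all skipped exons tested and 50% over the 4550 poison exon events of all genes. By class the share was 25 of 31 (80.7%), 3 of 4 and 2 of 9, beside 49.1%, 50.7% and 53.2% of the events of these classes over all genes. These signs were not tested, and exons of 1 gene share transcripts. In the first class every event of RBM39, SRSF7 and SRSF4 was above 0. At low inclusion the sign can also differ from that of the difference in percent. The 53-base event of RBM39 had a log2 ratio of 0.60 and a difference in mean inclusion of −0.02 percentage points.

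Among the SR proteins inclusion differed widely from exon to exon. By this measure the 268-base exon of SRSF6 (chr20:43459153-43459420) was the most included of those with a stop shown above. It stood at 42.8%, 46.9% and 48.1% in −Dox and at 44.9%, 47.7% and 40.9% in +Dox. The 456-base exon of SRSF3 (chr6:36599821-36600276) stood at 23.2%, 16.8% and 19.4% in −Dox and at 21.1%, 24.2% and 21.01% in +Dox. The groups overlapped in both. The rank of SRSF6 holds for this measure only. Its NMD form had a mean of 25.3 TPM, beside 30.6 TPM on coding transcripts that span the exon without it. For TRA2B these means were 59.7 and 36.9 TPM, and for TIAL1 8.13 and 7.26 TPM. The 98-base event of SRSF3 (chr6:36598429-36598526), at 1.39%, 1.17% and 1.95% against 1.09%, 0.777% and 1.56%, was rarely used.

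The 104-base exon of SRSF2 (chr17:76735772-76735875), which follows the stop codon of the coding form, stood at 8.20%, 5.83% and 7.42% in −Dox and at 7.58%, 7.69% and 7.94% in +Dox. The 449-base exon of SRSF7 (chr2:38748898-38749346) stood at 3.49%, 3.09% and 3.19% against 3.42%, 3.97% and 3.09%, and the 117-base exon of SRSF11 (chr1:70231859-70231975) at 3.27%, 2.93% and 3.47% against 2.80%, 4.27% and 3.68%. All overlapped between the groups. SRSF1 and SRSF5 had no annotated skipped exon that met the definition and the filter.

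Among the SR exons 2 had an unadjusted p under 0.05, both higher in +Dox without overlap. The 195-base exon of SRSF4 (chr1:29159864-29160058) stood at 2.90%, 2.51% and 2.10% in −Dox and at 3.91%, 4.07% and 4.76% in +Dox (log2 ratio 0.75 ± 0.23, SE, adjusted p = 0.636, limma), and its stop codon lies in an upstream exon. The 90-base exon of SRSF9 (chr12:120464733-120464822) stood at 0%, 0.0589% and 0.0656% in −Dox and at 0.234%, 0.219% and 0.161% in +Dox (log2 ratio 1.41 ± 0.32, SE, adjusted p = 0.526, limma). With a mean of 12.5 estimated counts on its including transcripts, the SRSF9 value is set by few reads, and its log2 ratio was 0.39 with a pseudocount of 1 TPM and 2.53 on estimated counts. With that pseudocount the SRSF4 ratio was 0.49. A shorter SRSF7 event of 276 bases ran from 0.625%, 0.545% and 0.585% to 0.829%, 0.864% and 0.643%, without overlap (adjusted p = 0.751, limma).

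The 276-base exon of TRA2B (chr3:185931577-185931852), the exon through which TRA2B is known to limit its own level, stood at 33.2%, 30.2% and 32.5% in −Dox and at 32.8%, 35.96% and 34.9% in +Dox. Of the +Dox libraries 2 were above all −Dox libraries, and the log2 ratio of 0.16 ± 0.20 (SE) did not pass the test (adjusted p = 0.874, limma). The exon of TRA2A with the most TPM (79 bases) stood at 1.84%, 1.21% and 0.506% against 1.30%, 0.665% and 1.61%. Neither exon passed the test.

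Among hnRNP genes most poison exons were little used. The 105-base exon of HNRNPDL (chr4:82425563-82425667), which follows the stop codon of the coding form, stood at 4.39%, 4.54% and 5.25% in −Dox and at 5.70%, 4.65% and 5.74% in +Dox, and the 134-base exon of HNRNPH1 (chr5:179621843-179621976) at 4.25%, 3.38% and 2.90% against 2.72%, 3.51% and 4.43%. The 83-base exon of HNRNPLL was used more, at 17.8%, 20.2% and 23.5% against 23.3%, 19.6% and 21.7%. The widest difference between the means of the 44, at 12.8 percentage points, was in an event of HNRNPH1 that compares only HNRNPH1-235 with HNRNPH1-207 (20.9%, 10.5% and 0% in −Dox, 21.95%, 6.17% and 41.8% in +Dox, with overlap, on a mean of 19.0 and 41.9 counts). Its 179-base exon (chr5:179618145-179618323) is a coding exon of 12 protein_coding transcripts, so these values are not the inclusion of that exon in the mRNA of the gene. Of the remaining events with the lower p values, the 107-base exon of HNRNPD stood at 0.694%, 0.754% and 0.696% against 1.06%, 0.819% and 1.82%, and the 70-base exon of HNRNPL at 0.618%, 1.096% and 1.31% against 1.68%, 1.69% and 1.26%. The 172-base exon of HNRNPA1, most of whose bases are coding in other transcripts, was at 0.0317%, 0% and 0.022% in −Dox and listed at 0 in +Dox. The HNRNPA1 events of 60 and 71 bases were at or near 100% because they are exons of HNRNPA1-205, the abundant transcript typed as NMD, and coding transcripts hold both exons too.

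In the splice site recognition genes, the 73-base exon of RBM39 (chr20:35740525-35740597) stood at 20.6%, 19.3% and 21.5% in −Dox and at 23.5%, 24.1% and 25.5% in +Dox. Each +Dox library was above each −Dox library, by 3.89 percentage points in the mean, and the log2 ratio of 0.32 ± 0.20 (SE, adjusted p = 0.769, limma) did not pass. The 376-base exon of TIAL1 (chr10:119580471-119580846) stood at 25.3%, 28.6% and 27.0% against 28.5%, 30.1% and 26.0%. The 66-base exon of its paralog TIA1 (chr2:70225328-70225393), which begins with the like sequence shown above, stood lower, at 6.83%, 7.72% and 9.88% against 7.15%, 6.60% and 3.57%. The groups overlapped in both. Skipping transcripts that are not coding enter these ratios, so the denominators of the paralogs need not be alike. The NMD form had a mean of 8.13 TPM in TIAL1 and 2.44 TPM in TIA1. Coding transcripts that span the exon without it held 7.26 and 45.8 TPM.

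In U2AF1 there are 2 exons of 67 bases, and neither is a poison exon alone. The coding transcripts U2AF1-201 and U2AF1-203 hold the downstream exon (chr21:43100453-43100519), U2AF1-202 holds the upstream one (chr21:43101366-43101432), and U2AF1-205, of the NMD type, and U2AF1-204, of the retained_intron type, hold both. The form with both exons, as a percent of itself and the forms with the downstream exon alone, stood at 6.35%, 18.1% and 5.55% in −Dox and at 9.48%, 7.77% and 4.71% in +Dox, and as a percent of itself and the form with the upstream exon alone it stood at 12.1%, 15.3% and 14.6% against 13.0%, 14.4% and 10.6%. The high value of the first ratio fell on −Dox replicate 2, the library in which the copy took 58.2% of the TPM of U2AF1 and its copy, against 13.1% to 37.4% in the other 5. Its part in these values was not tested.

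**Figure D5:**
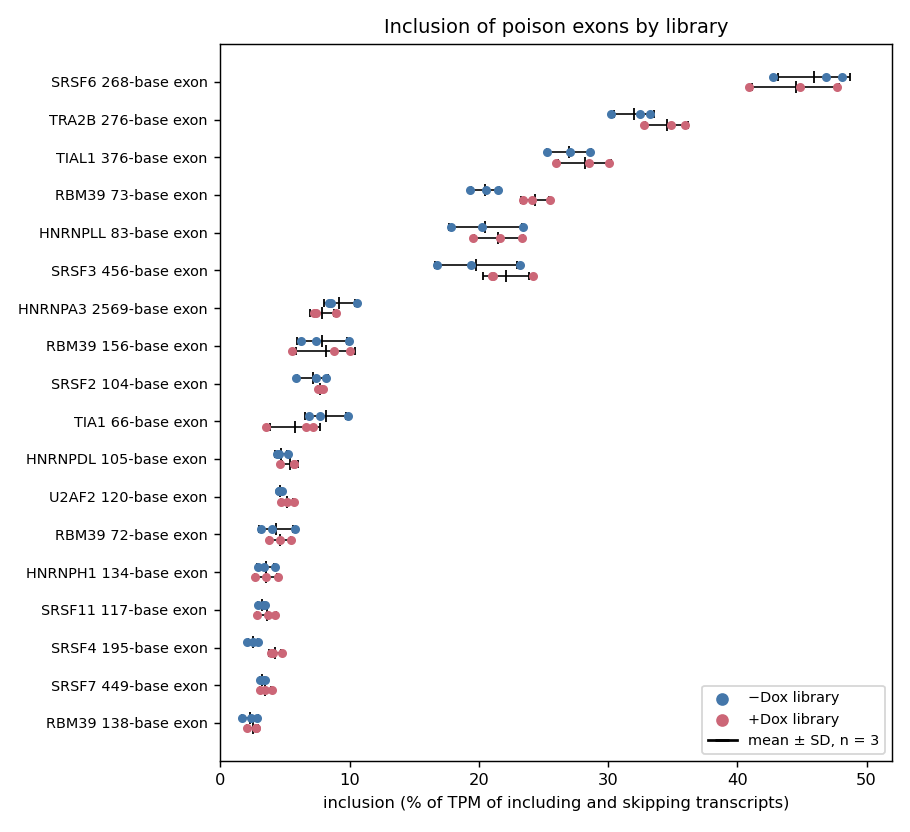
Inclusion (horizontal axis, percent of TPM on including transcripts) of the 18 events of the first 2 classes with a mean between 2% and 90% and at least 5 TPM on both forms together, with points for libraries and bars for the mean ± SD of each group. Transcripts of every type enter the ratio. By this measure SRSF6, TRA2B and TIAL1 exons sit highest, and in the 73-base exon of RBM39 every +Dox point lies above every −Dox point.

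Events of the reverse kind, in which skipping gives the NMD form, stood above 60% inclusion in 13 of 14 cases. In 6 of the 14 every coding transcript that spans the exon overlaps it, and in the others some coding transcripts lack it. The 90-base exon of TRA2A (chr7:23531181-23531270), which lies outside the coding sequence and which the coding transcript with most of the TPM of the gene also lacks, stood at 5.50%, 6.59% and 3.39% in −Dox and 6.62%, 4.53% and 4.28% in +Dox. The 34-base exon of PTBP1 was included at 93.3%, 96.4% and 93.9% in −Dox and at 93.6%, 93.1% and 93.7% in +Dox, and that of PTBP2 at 62.9%, 60.7% and 70.1% against 60.6%, 63.6% and 68.9%. The groups overlapped in both, although PTBP1 was called lower as a gene. The 139-base exon of HNRNPH1 (chr5:179619269-179619407) stood at 87.2%, 87.9% and 88.7% against 87.9%, 88.6% and 89.3%, and the 169-base exon of HNRNPD at 83.7%, 90.6% and 89.1% against 87.4%, 91.2% and 92.0%. Only the 72-base exon of HNRNPH1 (chr5:179617989-179618060) differed by more than 5 percentage points between the group means. Its inclusion was lower in +Dox by 9.33 points, with overlap (log2 ratio −0.76). The NMD form of that event is HNRNPH1-235, which had a mean of 19.0 counts. Of the 14 events, none had an unadjusted p under 0.05, and the smallest adjusted p was 0.778.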

How the data were processed

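Poly(A)-selected RNA of 6 K562 libraries (3 −Dox, 3 +Dox) was sequenced in pairs of 150 cycles. The authors ran Salmon 1.10.2, and for every transcript and library their files hold an estimated count, deposited without normalization, and a TPM value. The deposited TPM are scaled by the authors for effective length and depth. The Salmon index, strand and bias settings are not given in the sources used here, and the submitters' notes name hg38. Of 252045 transcripts, 251612 matched GENCODE 44 without regard to version, 433 did not and were left out, and the rest were summed over 62252 genes.

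Summed counts were rounded and tested with edgeR 4.0.16 (glmQLFit, glmQLFTest, TMM) in R 4.3.3 over all 21045 genes, or 86178 transcripts, with a mean count above 10. Shares and exon inclusion were tested with limma 3.58.1 on log2 ratios of TPM with a pseudocount of 0.1, over genes or exons whose mean reached 1 TPM and 10 counts. Log2 ratios with this pseudocount understate changes of low forms. Called means an adjusted p (Benjamini-Hochberg) under 0.05, and for exons also a difference above 5 percentage points. CPM was scaled by TMM. Standard errors of edgeR estimates were derived from the F statistic. Transcripts typed retained_intron or without a coding sequence were disregarded when exons were classed, but their TPM entered the inclusion values. Libraries of 1 group differed by more than counting noise, so none was the same library deposited again, which does not show that they came from separate cultures. Scripts were tested on simulated data, in which changed genes and transcripts were recovered more often than changed shares or exons. Sequences and 31-base words were read from hg38 and GENCODE 44.

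The regulators, though picked by symbol, and the lists and tests were chosen with earlier results of these data known. Of the cell type markers listed, 2 are not reported here. Values in every library are given for the genes called (up to 15), the highest gene, up to 8 genes by p in the NMD share, up to 6 in the retained_intron share, up to 8 poison events by p, the most abundant event of 15 named genes, and estimates for up to 5 genes by p of each pathway list. Alternatives were DESeq2 1.42.0, RLE factors, other filters, pseudocounts and denominators, a length offset, leaving out each library, estimated counts instead of TPM, and the replicate number as a term.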

Additional observations from a re-analysis of the deposited data

How the results depend on the processing

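Of the regulators, 10 were called at gene level, 16 with DESeq2, 13 with RLE factors, 12 without the filter on low counts, 11 with a summed count above 10, 8 with a transcript length offset, 11 with the copy of U2AF1 added (chosen after seeing the data), and 4 (without +Dox replicate 1) to 13 (without −Dox replicate 1) with 1 library left out. The length offset ended the calls of TRA2A (adjusted p = 0.0902), TRA2B (0.0536), HNRNPU (0.0808) and PTBP1 (0.0812), and the absence of a filter that of TRA2B (0.0644). The estimate for U2AF1 without its copy reversed sign with the length offset (0.012) and ran from −0.21 without −Dox replicate 2 to 0.13 without −Dox replicate 3 (0.02 without +Dox replicate 1). No called regulator changed direction under any alternative. At transcript level 1 was called, 48 with DESeq2 (5876 of all transcripts against 176), 2 at a mean count above 50 (429 of all), and 0 with RLE factors, without the filter, or with 1 library left out (2 to 4 of all). The HNRNPC-210 adjusted p was 6.87e-15 with DESeq2, 0.0609 with RLE factors, 0.0608 without the filter and 0.117 to 0.197 with 1 library left out, and the cause was not tested. No NMD share, retained_intron share or poison exon of a regulator was called under any alternative, nor at any library left out. Over all genes the length offset gave 1883 calls against 3333, and over all skipped exons estimated counts gave 38 exons at an adjusted p under 0.05, against 0.

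Replicate numbers are only names: deviations of same-numbered libraries correlated at 0.00752, −0.0605 and −0.00285. With the replicate block, 1 regulator was called at gene level (HNRNPF, adjusted p = 0.0206) and 0 transcripts (0 of all, HNRNPC-210 adjusted p = 0.612), and no shares or poison exons.

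With 3 libraries a group and p-values that rest on the spread between them, a share or inclusion change of the size seen for RBM39 or SRSF4 did not pass the adjustment. Estimates for NMD and coding forms depend on how the quantification divides shared bases, and the inclusion of the 90-base exon of SRSF9 rests on few reads. The absence of calls for shares and exon inclusion does not show that these did not change.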

Other observations

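Beyond poison exons, 192 of the 222 annotated skipped exon events in the regulators were tested, poison events among them, and 10 in 7 genes (5.21%) had an unadjusted p under 0.05 (limma), beside 7.06% of all skipped exons. A 95-base exon of MBNL2 (chr13:97366459-97366553) stood at 12.2%, 6.83% and 8.99% inclusion in −Dox and at 15.4%, 15.6% and 12.9% in +Dox, without overlap, on a mean of 34.8 including counts (adjusted p = 0.696). HNRNPDL-206, the coding transcript with most of the TPM of HNRNPDL, stood at 226, 224 and 223.5 TPM in −Dox and at 180.1, 193.5 and 182 TPM in +Dox (edgeR, log2 fold change −0.22 ± 0.03, SE, adjusted p = 0.0839). SRSF4-208, of the NMD type, stood at 1.25, 1.14 and 1.04 TPM in −Dox and at 1.84, 1.97 and 2.01 TPM in +Dox (edgeR, 0.83 ± 0.13, SE, adjusted p = 0.0999). These were chosen after their values were seen.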
